A study of Homo sapiens with 8 samples.

Results

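The genes described here are 43 genes of antioxidant defense, the pentose phosphate pathway and the NRF2 program. They were taken by symbol from the 21059 genes of the deposited expression table, and all 43 were in it. RNA was sequenced from MDA-MB-157, a human breast cancer cell line labelled negative for the estrogen receptor (ER), in 4 libraries at 5 mM glucose (low glucose) and 4 at 25 mM glucose (high glucose), each after 48 hours. According to the study's methods, all cells were first conditioned in low-glucose medium, and the high-glucose cells were then switched, with no serum in the medium of either group. The comparison asks how a diabetes-like glucose level changes transcript levels in these cells. No library with an osmotic control was analysed here. The replicates are not stated to be separate cultures, so the p-values measure the spread between these libraries, which may be technical.

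NRF2, the product of NFE2L2, is a transcription factor that KEAP1 holds in the cytoplasm and marks for degradation. Oxidants and electrophiles modify KEAP1, whereupon NRF2 enters the nucleus, pairs with a small MAF protein and binds antioxidant response elements near genes of glutathione and thioredoxin metabolism, quinone reduction, iron storage and drug export. The pentose phosphate pathway branches from glucose 6-phosphate and provides ribose for nucleotides as well as NADPH, the electron source with which glutathione and thioredoxin are kept reduced.

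Values were library-scaled read counts in the unit CPM, and the libraries held an estimated 9721649 to 12482542 reads, so that 3 reads, used as a floor, were worth 0.212 to 0.267 CPM. Over genes with more than 40 summed reads, the squared difference between a pair of low-glucose libraries was 1.29 to 1.93 times that of counting error, and between high-glucose replicates 2, 3 and 4 it was 2.09 to 3.44 times. High-glucose replicate 1 differed from the other 3 by 8.27 to 14.4 times counting error. It was the highest of its group in 76.9% of genes with a transcript under 2000 bases and a mean of at least 5 CPM, and in 30.2% of the longer ones. Results for short transcripts are therefore also given without it. ESR1, the gene of ER alpha, was at 0 to 0.17 CPM, as the label states. The epithelial keratin KRT18 was at 228 to 238 CPM at low and 156 to 196 CPM at high glucose. The mesenchymal VIM was at 4060 to 4116 CPM and 2856 to 3282 CPM, and CDH1, the epithelial cadherin, was near 1 CPM. In the test given below, 2 of 8 breast epithelial and receptor markers rose and 3, KRT18 among them, fell. Of 6 mesenchymal and basal markers, 1, ZEB1, rose and 3, VIM among them, fell. Of the immune, endothelial and blood markers, PTPRC, the pan-leukocyte marker, was at most 0.18 CPM, CD68 was at 9.38 to 14.3 CPM, PECAM1 at 0.911 to 1.24 CPM at low and 1.51 to 2.84 CPM at high glucose, and VWF at 1.33 to 1.53 CPM at low and 0 to 0.918 CPM at high glucose. Their part in the results was not tested. In bulk RNA, fewer cells that express a gene and less RNA per cell cannot be told apart. Exons of 12 members, NFE2L2 and NQO1 among them, overlap a gene on the opposite strand, and whether strand was used in counting is not given in the sources used here.

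Of the 43 members, 10 rose and 17 fell at high glucose, and 16 did not pass the test, which was limma on log2(CPM + 1) with p-values adjusted over all 21059 genes and a threshold of 0.05. Of all genes, 46.8% passed, 22.0% as higher and 24.8% as lower. The members were mostly well expressed, with 41 at a mean of at least 5 CPM. Among these, 26 (63.4%) passed, beside 66.9% of the 11297 genes at that level, so the share of members called was near that of other genes. Higher calls made up 24.4% of the 41 members, beside 33.6% of all genes at that level, and lower calls 39.0%, beside 33.3%. The counts by role or list given below stand beside these shares and were not tested against them. With quantile normalization the split among the 43 was 7 higher and 20 lower. The median log2 change was −0.17 over the members and −0.01 over all genes. The libraries of the groups did not overlap in 24 members, 23 of them among the 41 (56.1%), beside 65.0% of all genes of at least 5 CPM. HMOX1 was the 1 member that rose by at least 1 on the log2 scale, as did 2.32% of all genes and 3.28% of those of at least 5 CPM, while CAT and AKR1C3 were the 2 that fell by at least 1, as did 2.45% of all genes and 3.60% of those of at least 5 CPM.

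**Figure D1:**
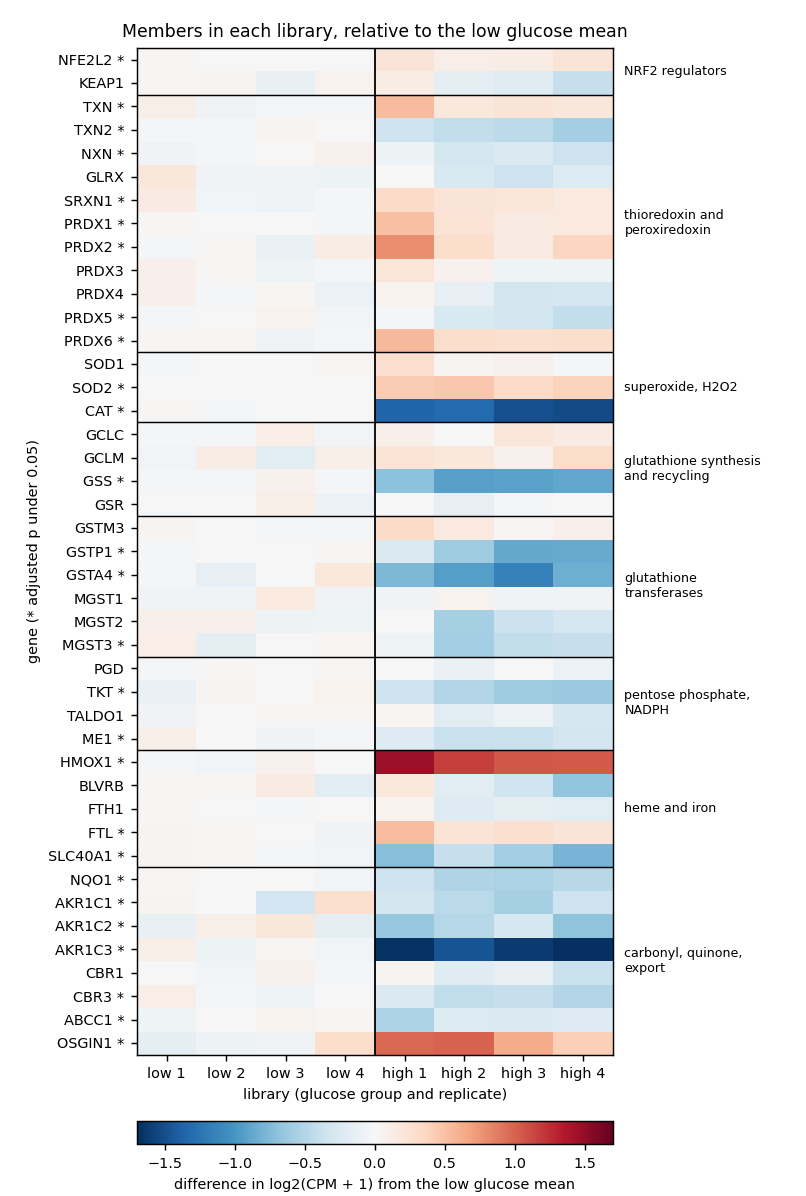
Rows are the 43 members grouped by role, columns the 8 libraries, and color gives the difference in log2(CPM + 1) from the mean of the 4 low-glucose libraries, red for higher. The high-glucose columns hold strong red for HMOX1 and OSGIN1 and strong blue for CAT and AKR1C3, and high-glucose replicate 1 is redder than its group in most rows.

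The sensor pair differed little between the groups. NFE2L2 (chr2:177230303-177264727, GRCh38.p14), which encodes NRF2, was at 142, 140.2, 140.2 and 141 CPM in low-glucose replicates 1 to 4 and at 164, 152, 154 and 164 CPM in high-glucose replicates 1 to 4. All high-glucose libraries lay above all low-glucose ones. The mean rose from 141 ± 1.09 to 159 ± 6.36 CPM (SD, n = 4 each), a log2 change of 0.17 ± 0.03 (SE; limma adjusted p = 0.00274). With quantile normalization the change was 0.07 and did not pass (limma adjusted p = 0.0637). KEAP1 (chr19:10486125-10503356), the adaptor that brings NRF2 to a ubiquitin ligase, was at 63.0, 64.1, 57.0 and 64.9 CPM in the low-glucose and at 67.8, 55.2, 53.9 and 47.4 CPM in the high-glucose libraries. High-glucose replicate 1 was the highest of all 8 and replicate 4 the lowest. The log2 change of −0.16 ± 0.11 (SE) did not pass (limma adjusted p = 0.266), whereas without high-glucose replicate 1 it was −0.25 and passed (limma adjusted p = 0.0246), and without replicate 4 it was −0.08 and did not (limma adjusted p = 0.519).

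Larger changes were found in some partners of NRF2. Of 16 other genes listed as partners and regulators of NRF2, 9 rose, 2 fell and 5 did not pass, and the 3 of smallest adjusted p were the 3 small MAF genes. Of all genes of at least 5 CPM, 33.6% rose and 33.3% fell. The 5 that did not pass had log2 changes from −0.09 to 0.10. MAFG, whose protein dimerizes with NRF2 on DNA, was at 182, 184, 179 and 187 CPM at low glucose and at 634, 619, 601 and 572 CPM at high glucose, with no overlap and a log2 change of 1.72 ± 0.03 (SE; limma adjusted p = 3.61e-07). MAFF rose from 17.4 ± 1.8 to 63.3 ± 4.45 CPM (SD, n = 4; log2 change 1.81) and MAFK from 45.8 ± 2.95 to 129.7 ± 11.7 CPM (log2 change 1.48). Small MAF proteins carry no activation domain and also pair with BACH1, a heme-regulated repressor of the same elements. The following 4 genes were named after their values were seen. BACH1 rose from 89.0 ± 1.99 to 109 ± 10.6 CPM (log2 change 0.29; 0.17 with quantile normalization, limma adjusted p = 0.0757). CUL3, the scaffold of the ligase that KEAP1 serves, rose from 95.2 ± 2.59 to 138 ± 5.1 CPM, and SQSTM1, an autophagy adaptor that binds KEAP1, from 691 ± 14.3 to 1017 ± 80.2 CPM, with log2 changes of 0.53 and 0.55. NFE2, a relative of NRF2, fell from 7.29 ± 0.823 to 1.66 ± 0.211 CPM (log2 change −1.64).

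The enzymes of superoxide and hydrogen peroxide removal went in different directions, with 1 rise, 1 fall and 1 that did not pass. CAT (chr11:34438934-34472060), which encodes catalase, the peroxisomal enzyme that splits hydrogen peroxide into water and oxygen, was at 58.1, 56.6, 56.7 and 57.4 CPM at low glucose and at 21.7, 22.4, 19.6 and 19.4 CPM at high glucose. The low-glucose libraries lay close together, and every high-glucose library was far below them. The mean went from 57.2 ± 0.672 to 20.8 ± 1.5 CPM (SD, n = 4), a ratio of 0.363 and a log2 change of −1.42 ± 0.05 (SE; limma adjusted p = 2.001e-06). SOD2 (chr6:159669069-159762281), the mitochondrial superoxide dismutase, which makes hydrogen peroxide from superoxide, was at 70.3, 71.1, 71.1 and 70.9 CPM and at 95.9, 97.5, 88.7 and 92.2 CPM. The groups did not overlap, and the log2 change was 0.40 ± 0.03 (SE; limma adjusted p = 5.03e-05). SOD1, the cytosolic copper-zinc enzyme, was at 273, 278, 281 and 286 CPM at low glucose and at 340.2, 288, 294 and 276 CPM at high glucose. Its groups overlapped through high-glucose replicate 4, and the log2 change of 0.09 ± 0.06 did not pass (limma adjusted p = 0.268). SOD2 exons also meet those of ACAT2 and WTAP on the opposite strand.

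**Figure D2:**
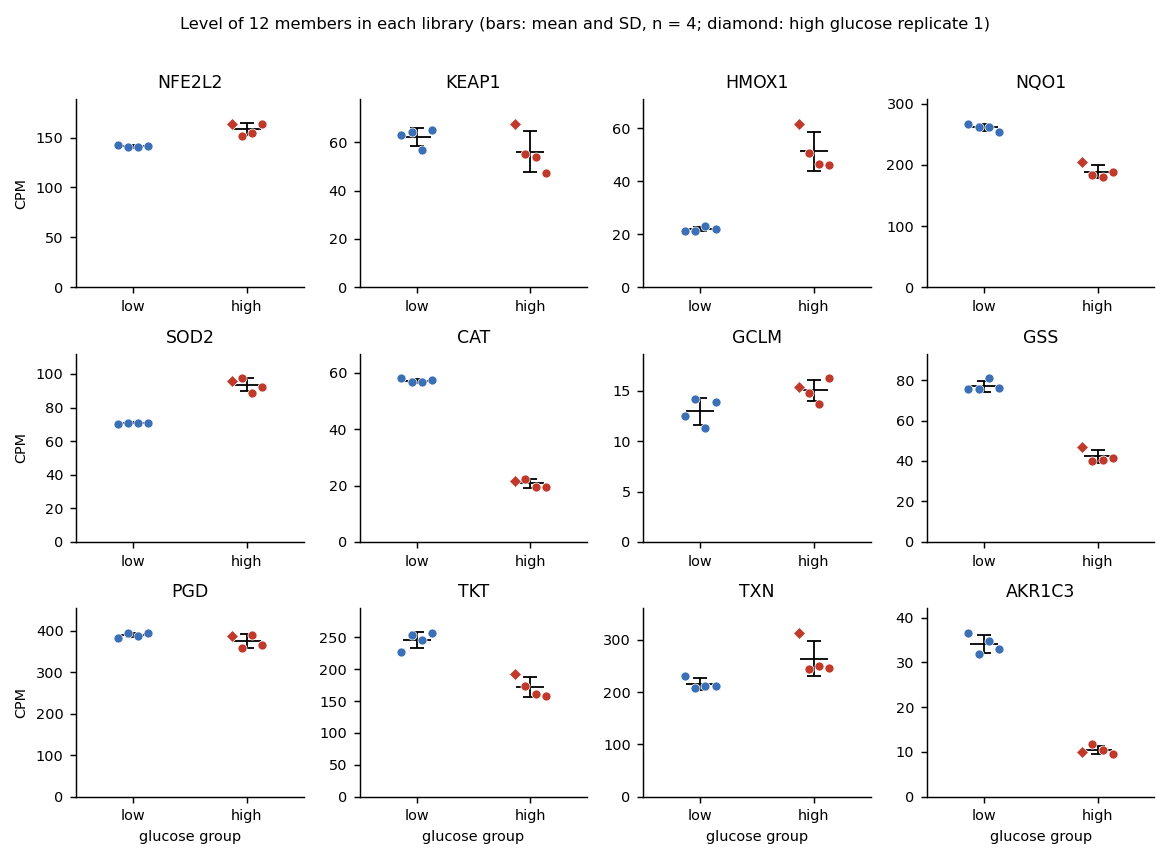
Each panel plots CPM (axis from 0) of 1 member in the 4 low-glucose libraries (blue) and the 4 high-glucose libraries (red), with the mean and SD. HMOX1, SOD2, NFE2L2 and TXN lie wholly higher at high glucose, CAT, AKR1C3, GSS, TKT and NQO1 wholly lower, while KEAP1, PGD and GCLM overlap.

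Thioredoxin and peroxiredoxin genes passed the test in both directions. Of 11 members, 5 rose, 3 fell and 3 did not pass. Thioredoxin reduces disulfides with electrons from NADPH, and most peroxiredoxins use it to remove peroxides. PRDX6, a peroxiredoxin that also has phospholipase activity, was at 133, 134, 125 and 129 CPM at low glucose and at 192, 161, 157 and 160.3 CPM at high glucose, with no overlap and a log2 change of 0.36 ± 0.07 (SE; limma adjusted p = 0.0037; 0.29 without high-glucose replicate 1). TXN, cytosolic thioredoxin, was at 231, 207, 212 and 212 CPM and at 314, 244, 250.4 and 247 CPM. High-glucose replicate 1 stood above the other 3 high-glucose libraries, which were still above all low-glucose ones, and the log2 change was 0.28 with all libraries (limma adjusted p = 0.0325) and 0.20 without replicate 1. PRDX2, a cytosolic peroxiredoxin, was low, at 8.75, 9.03, 8.15 and 9.83 CPM and at 16.2, 11.2, 10.1 and 11.8 CPM. Its log2 change was 0.40 and passed narrowly (limma adjusted p = 0.049). PRDX1, the most abundant cytosolic peroxiredoxin here per kilobase of transcript (242 CPM per kilobase at low glucose), was at 226 to 231 CPM at low glucose and at 253 to 325 CPM at high glucose (log2 change 0.26).

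SRXN1, sulfiredoxin, which restores overoxidized peroxiredoxins, was at 70.3 to 80.3 CPM at low glucose and at 81.9 to 91.9 CPM at high glucose (log2 change 0.23, limma adjusted p = 0.0109). Of its transcript, 90.6% of 31-base words also occur in an overlapping gene model on the same strand, so its reads are not unique to it, and with quantile normalization the change was 0.12 and did not pass (limma adjusted p = 0.12). The 3 that fell were TXN2, NXN and PRDX5. TXN2, mitochondrial thioredoxin, was at 93.1, 92.1, 96.9 and 94.0 CPM at low glucose and at 73.6, 70.4, 68.9 and 62.8 CPM at high glucose, which did not overlap, and the log2 change was −0.44 ± 0.05 (SE; limma adjusted p = 2.44e-04). NXN, nucleoredoxin, was at 155, 160.3, 162 and 171 CPM and at 152, 131, 137 and 126 CPM (log2 change −0.25, limma adjusted p = 0.0122), where high-glucose replicate 1 came near the lowest low-glucose library without reaching it. PRDX5, found in mitochondria, peroxisomes and cytosol, was at 171, 172, 180.4 and 167 CPM and at 168, 144, 139 and 129 CPM, and its log2 change of −0.26 passed (limma adjusted p = 0.0304) although high-glucose replicate 1 fell among the low-glucose libraries. PRDX3, the mitochondrial peroxiredoxin, PRDX4, that of the endoplasmic reticulum, and GLRX, glutaredoxin, overlapped between groups, with log2 changes of 0.03, −0.17 and −0.21 that did not pass. Without high-glucose replicate 1 those of PRDX4 and GLRX were −0.25 and −0.28 and passed (limma adjusted p = 0.0168 and 0.0248), and that of PRDX3 was −0.03 and did not (limma adjusted p = 0.744). TXNRD1, cytosolic thioredoxin reductase and a non-member named after its values were seen, was at 329.9 to 345 CPM at low glucose and at 299.5 to 331 CPM at high glucose and did not pass (log2 change −0.09, limma adjusted p = 0.0783; −0.17 with quantile normalization, limma adjusted p = 0.0134).

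Calls on the smaller changes in this group depended on single libraries. TXN lost its call without low-glucose replicate 2, 3 or 4 or high-glucose replicate 3 (limma adjusted p up to 0.0807), and PRDX1 without any 1 of the 4 low-glucose libraries or without high-glucose replicate 2 (up to 0.0655). PRDX2 lost it without any 1 of the low-glucose libraries or without high-glucose replicate 2 or 4 (up to 0.114), and PRDX5 without any 1 library other than high-glucose replicate 1 (up to 0.0777). With each of the 8 libraries left out in turn, their log2 changes were 0.20 to 0.32 for TXN, 0.18 to 0.30 for PRDX1, 0.27 to 0.49 for PRDX2 and −0.33 to −0.20 for PRDX5.

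Of the 4 members of glutathione synthesis and recycling, GSS fell and the other 3 did not pass. Glutathione is made in 2 steps, the first and limiting one by the glutamate-cysteine ligase of a catalytic subunit, GCLC, and a modifier subunit, GCLM, and the second by glutathione synthetase, GSS. GCLC was at 61.3, 61.6, 68.0 and 60.7 CPM at low glucose and at 66.8, 63.3, 72.8 and 69.2 CPM at high glucose. GCLM was at 12.5, 14.2, 11.3 and 13.9 CPM and at 15.4, 14.8, 13.7 and 16.3 CPM. In GCLC low-glucose replicate 3 alone lay inside the range of the high-glucose libraries, and in GCLM replicates 2 and 4 did. The log2 changes of 0.11 ± 0.05 and 0.20 ± 0.08 (SE) did not pass (limma adjusted p = 0.136 and 0.0862), while GCLC passed without low-glucose replicate 3 (log2 change 0.15, limma adjusted p = 0.0488). GSS (chr20:34928432-34956027) was at 75.4, 75.4, 80.9 and 76.2 CPM at low glucose and at 47.0, 40.2, 40.6 and 41.3 CPM at high glucose. Every high-glucose library was below every low-glucose one, the ratio of the means was 0.549, and the log2 change was −0.85 ± 0.05 (SE; limma adjusted p = 2.06e-05). GSS shares exon bases with MYH7B on the opposite strand. GSR, glutathione reductase, which regenerates glutathione with NADPH, was at 28.2 to 32.4 CPM and 27.5 to 30.4 CPM, with a log2 change of −0.04 that did not pass (limma adjusted p = 0.54).

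Cystine uptake, the step before glutathione synthesis, was split between the subunits of its exchanger, both non-members named after their values were seen. SLC7A11, the transporter subunit, fell from 82.4 ± 2.37 to 40.8 ± 3.87 CPM (SD, n = 4; log2 change −1.002, limma adjusted p = 2.21e-05). SLC3A2, the heavy chain that it shares with amino acid exchangers, rose from 259 ± 1.43 to 799 ± 122 CPM (log2 change 1.61, limma adjusted p = 1.90e-05). Of 42 other genes listed for glutathione and thioredoxin metabolism, 8 rose, 18 fell and 16 did not pass. The 3 of smallest adjusted p all fell: GPX8, a peroxidase of the endoplasmic reticulum, with a log2 change of −0.96, PRXL2A, a peroxiredoxin-like protein, with −1.05, and GGCX, with −0.80. GGCX is known as the vitamin K-dependent carboxylase, not as an enzyme of glutathione.

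Among the 6 glutathione transferases, which join glutathione to electrophiles, 3 fell and 3 did not pass. GSTP1 (chr11:67583812-67586653), the most abundant of them per kilobase at low glucose (235 CPM per kilobase), was at 170.3, 175, 173 and 178 CPM at low glucose and at 147, 115, 94.7 and 95.8 CPM at high glucose. High-glucose replicate 1 was nearest the low-glucose libraries, yet below all of them, and the log2 change was −0.64 ± 0.14 (SE; limma adjusted p = 0.00662; −0.78 without replicate 1). GSTA4, which conjugates the lipid peroxidation product 4-hydroxynonenal, was at 11.5, 10.4, 11.6 and 13.3 CPM and at 6.42, 5.58, 4.7 and 6.13 CPM, a ratio of 0.489 and a log2 change of −0.92 ± 0.11 (SE; limma adjusted p = 3.45e-04). MGST3, a microsomal transferase, was at 57.2, 47.5, 52.9 and 54.0 CPM and at 50.3, 35.2, 39.4 and 39.8 CPM, which overlapped through high-glucose replicate 1 (log2 change −0.36, limma adjusted p = 0.0309). Its call was lost without low-glucose replicate 1, 3 or 4 or high-glucose replicate 2, 3 or 4, at log2 changes of −0.36 to −0.29 and limma adjusted p up to 0.0794. MGST2 was at 12.9 to 14.6 CPM and 9.01 to 13.8 CPM and did not pass (log2 change −0.30; −0.40 without high-glucose replicate 1, limma adjusted p = 0.00936), and GSTM3 was at 80.5 to 85.4 CPM and 84.1 to 104 CPM (log2 change 0.15, limma adjusted p = 0.09). MGST1 was at 0 in 6 libraries and under the floor of 3 reads in the other 2, so a difference was not detectable at this depth.

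None of the 4 members of the pentose phosphate pathway and NADPH supply rose: TKT and ME1 fell, and PGD and TALDO1 did not pass. PGD (chr1:10399064-10420511), 6-phosphogluconate dehydrogenase, which makes NADPH in the oxidative branch, was at 383, 393, 386 and 395 CPM at low glucose and at 387, 358, 390.0 and 365 CPM at high glucose. The groups overlapped, the log2 change was −0.05 ± 0.03 (SE; limma adjusted p = 0.221), and the level stayed the highest of the 4 per kilobase in both groups, 172 and 165 CPM per kilobase. TKT (chr3:53224712-53256022), transketolase of the non-oxidative branch, which ties the pathway back to glycolysis, was at 228, 253, 246 and 257 CPM and at 192, 174, 162 and 158 CPM. All high-glucose libraries were below all low-glucose ones, with a log2 change of −0.52 ± 0.07 (SE; limma adjusted p = 7.55e-04). TALDO1, transaldolase of the same branch, was at 57.1, 60.1, 60.6 and 60.5 CPM and at 61.1, 52.3, 55.5 and 48.9 CPM, where high-glucose replicate 1 was the highest of all 8 libraries. Its log2 change was −0.13 (limma adjusted p = 0.144), −0.19 without replicate 1 (limma adjusted p = 0.0167) and −0.08 without replicate 4 (limma adjusted p = 0.278). ME1, cytosolic malic enzyme, which makes NADPH from malate, was at 62.8, 59.1, 56.1 and 57.4 CPM and at 50.3, 45.1, 45.2 and 47.1 CPM, did not overlap, and had a log2 change of −0.32 ± 0.05 (SE; limma adjusted p = 0.00124).

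The wider set of 21 pentose phosphate and NADPH enzymes held 3 that rose, 10 that fell and 8 that did not pass. The 3 of smallest adjusted p fell, all without overlap. IDH2, mitochondrial NADP-dependent isocitrate dehydrogenase, went from 59.0 ± 3.5 to 24.3 ± 0.944 CPM (SD, n = 4; log2 change −1.24, limma adjusted p = 3.08e-06), PGLS, 6-phosphogluconolactonase, from 75.4 ± 1.46 to 31.6 ± 2.39 CPM (log2 change −1.23) and H6PD, the hexose 6-phosphate dehydrogenase of the endoplasmic reticulum, from 26.9 ± 0.657 to 10.7 ± 0.847 CPM (log2 change −1.26). Others of the list that fell were IDH1 (log2 change −0.58), MTHFD2 (−0.46), the transhydrogenase NNT (−0.31), ME3 (−0.52), NADK2, a mitochondrial NAD kinase (−0.15), and the ribokinase RBKS (−0.34). ME3 was near the floor of 3 reads, at 0.58 to 1.61 CPM at low and 0.319 to 0.66 CPM at high glucose, and its groups overlapped. The calls of ME3 and NADK2 were each lost without any 1 of 6 single libraries, the low-glucose replicates 1, 3 and 4 and, for ME3, high-glucose replicates 1, 2 and 4, or, for NADK2, high-glucose replicates 2, 3 and 4 (limma adjusted p up to 0.0919 and 0.101). The call of NADK2 was also lost with median-of-ratios scaling (log2 change −0.11, limma adjusted p = 0.0979), that of ME3 with quantile normalization (−0.45, limma adjusted p = 0.0544), and that of RBKS with a length trend removed from each library (−0.25, limma adjusted p = 0.103). The 3 genes that rose act on ribose phosphates: PRPS2 and PRPS1, which make phosphoribosyl pyrophosphate for nucleotide synthesis, with log2 changes of 0.91 and 0.32, and the epimerase RPE, with 0.19 (0.08 with quantile normalization, limma adjusted p = 0.153). The isomerase RPIA, the aldolase DERA, SHPK, ME2, NADK, MTHFD1, MTHFD1L and MTHFD2L did not pass, with log2 changes from −0.15 for DERA to 0.41 for MTHFD2L, though RPIA, NADK, MTHFD1 and MTHFD2L passed under at least 1 alternative.

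**Figure D3:**
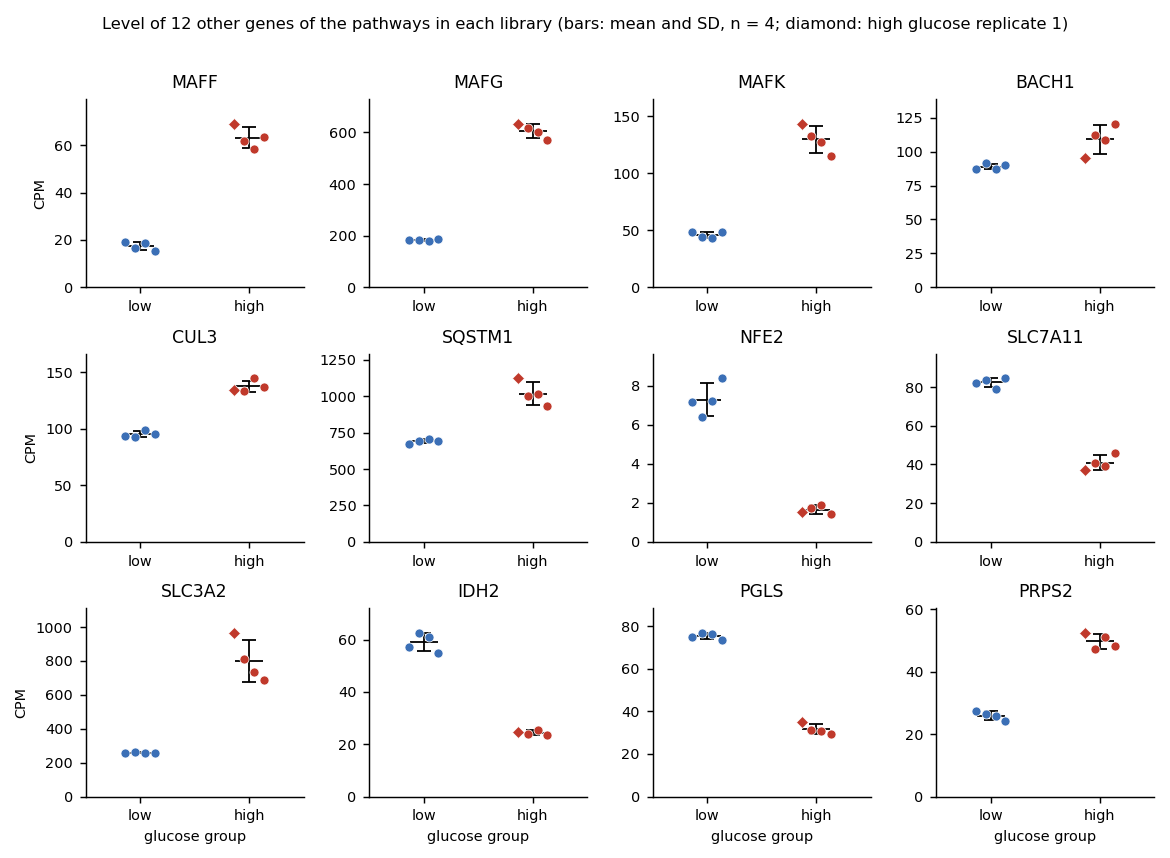
Each panel plots CPM (axis from 0) of 1 other gene of these pathways in the 4 low-glucose libraries (blue) and the 4 high-glucose libraries (red), with the mean and SD. The small MAF genes, BACH1, CUL3, SQSTM1, SLC3A2 and PRPS2 lie higher at high glucose, and NFE2, SLC7A11, IDH2 and PGLS lower, with no overlap in any of the 12 panels.

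RefSeq promoters (GRCh38.p14, 250 bases before to 50 after 1 start per gene) were found for 32 of the 43 members and searched on both strands for TGACNNNGC, the core of the antioxidant response element. For SOD2, NFE2L2, AKR1C2 and MGST1 the start used lies inside the gene, not at its outer boundary. The windows of SOD2 (chr6:159727335-159727634) and AKR1C2 (chr10:5003808-5004107) lie far inside it. The counts below include these genes, none of which held a match. Members without a promoter included HMOX1, PRDX1 and PRDX6, which rose, and TXN2, GSS, CBR3 and ABCC1, which fell. Elements outside this window were not searched. The letters were present in 6 of the 32 promoters (18.8%), beside 3702 of 27305 promoters of all genes (13.6%). They were found in 0 of 7 members that rose, in 3 of 13 that fell (GSTP1, GSTA4 and ME1) and in 3 of 12 that did not pass (GCLM, PGD and CBR1). The stricter TGACTCAGC, which overlaps it and also holds a TPA response element, was in 2 of the 32 promoters, GSTP1 and ME1, beside 154 of 27305 (0.564%). The 3 promoters of members that fell are shown because they carry the letters, with the match in capitals. In GSTP1 it begins 66 bases before the start, in GSTA4 9 bases before, and in ME1 137 bases before, with a further match on the reverse strand at base 12 of the transcript.
GSTP1 (chr11:67583562-67583861, plus strand): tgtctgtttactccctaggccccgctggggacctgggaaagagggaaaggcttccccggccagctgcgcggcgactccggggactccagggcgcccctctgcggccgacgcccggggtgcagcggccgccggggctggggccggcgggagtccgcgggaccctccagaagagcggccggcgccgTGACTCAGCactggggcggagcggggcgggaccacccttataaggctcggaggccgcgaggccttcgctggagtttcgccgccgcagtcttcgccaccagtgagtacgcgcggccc
GSTA4 (chr6:52995235-52995534, minus strand): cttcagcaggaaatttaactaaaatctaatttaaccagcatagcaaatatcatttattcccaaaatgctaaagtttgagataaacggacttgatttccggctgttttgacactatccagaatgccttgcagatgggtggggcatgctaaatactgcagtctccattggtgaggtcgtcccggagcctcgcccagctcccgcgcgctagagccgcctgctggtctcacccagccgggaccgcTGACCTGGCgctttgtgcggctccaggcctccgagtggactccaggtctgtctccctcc
ME1 (chr6:83431002-83431301, minus strand): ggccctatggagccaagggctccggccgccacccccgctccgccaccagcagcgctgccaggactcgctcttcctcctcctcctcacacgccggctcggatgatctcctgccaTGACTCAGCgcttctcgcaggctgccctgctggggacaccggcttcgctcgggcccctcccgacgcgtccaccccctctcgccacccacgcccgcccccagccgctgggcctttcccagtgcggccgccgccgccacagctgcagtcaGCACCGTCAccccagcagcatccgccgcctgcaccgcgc
A match describes the letters only, and no measurement of binding was made in these samples.

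Heme and iron genes held the largest rise of the members. HMOX1 (chr22:35381096-35394207), heme oxygenase 1, which breaks heme down to biliverdin, carbon monoxide and iron, was at 21.3, 21.3, 23.2 and 22.0 CPM at low glucose and at 61.8, 50.9, 46.5 and 46.1 CPM at high glucose. Every high-glucose library was far above every low-glucose one. The mean went from 22.0 ± 0.886 to 51.3 ± 7.32 CPM (SD, n = 4), a ratio of 2.34 and a log2 change of 1.18 ± 0.09 (SE; limma adjusted p = 5.86e-05; 1.09 without high-glucose replicate 1). Ferritin, which stores the freed iron, is built of heavy and light chains, and the chains differed. FTL, the light chain, was at 492, 485, 475 and 458 CPM at low glucose and at 690.0, 560.5, 575 and 556 CPM at high glucose, without overlap (log2 change 0.31, limma adjusted p = 0.0102). FTH1, the heavy chain, was at 1112, 1078, 1071 and 1084 CPM and at 1134, 933, 975 and 947 CPM, where high-glucose replicate 1 was the highest of all libraries and the other 3 were the lowest. Its log2 change of −0.13 did not pass (limma adjusted p = 0.158), without replicate 1 it was −0.19 and passed (limma adjusted p = 9.97e-04), and with quantile normalization it was 0.05. Both transcripts share sequence with ferritin pseudogenes, 51.9% of 31-base words for FTH1 and 33.5% for FTL, so their counts are uncertain. SLC40A1, ferroportin, the exporter of iron, was at 17.3, 17.1, 16.4 and 16.1 CPM and at 9.74, 12.4, 10.8 and 9.24 CPM, which did not overlap (log2 change −0.62 ± 0.09 (SE), limma adjusted p = 9.05e-04). BLVRB, a biliverdin reductase, was at 17.3 to 21.8 CPM and 12 to 22.4 CPM and did not pass (log2 change −0.26, limma adjusted p = 0.275; −0.40 without high-glucose replicate 1, limma adjusted p = 0.0466, and −0.12 without replicate 4, limma adjusted p = 0.536).

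Among 20 other heme and iron genes that were measured, 7 rose, 7 fell and 6 did not pass. The 3 of smallest adjusted p were SLC39A14, a zinc and iron importer, which went from 91.2 ± 2.66 to 187 ± 6.24 CPM (log2 change 1.03), TFRC, the transferrin receptor, from 230.1 ± 2.78 to 391 ± 15.0 CPM (log2 change 0.76), and ACO1, the cytosolic aconitase that binds iron-responsive elements of messenger RNA, from 47.4 ± 0.622 to 33.2 ± 1.24 CPM (log2 change −0.50).

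Of the 8 members of carbonyl and quinone reduction and export, 6 fell, OSGIN1 rose and CBR1 did not pass. NQO1 (chr16:69709401-69726560), the quinone reductase often used as a readout of NRF2, was at 267, 262, 262 and 254 CPM at low glucose and at 205, 183, 180.2 and 188 CPM at high glucose. The groups were far apart, and the log2 change was −0.47 ± 0.04 (SE; limma adjusted p = 1.17e-04). AKR1C3 (chr10:5048781-5107686), an aldo-keto reductase of steroids and prostaglandins, showed the largest fall of all members. It was at 36.6, 31.9, 34.6 and 33.0 CPM at low glucose and at 9.88, 11.6, 10.3 and 9.51 CPM at high glucose, a ratio of 0.304 and a log2 change of −1.63 ± 0.07 (SE; limma adjusted p = 4.23e-06). Its relatives next to it on chromosome 10 were much lower, AKR1C1 at 6.27, 5.96, 4.62 and 7.48 CPM and 4.62, 4.08, 3.73 and 4.47 CPM, and AKR1C2 at 1.5, 1.92, 2.1 and 1.42 CPM and 0.745, 0.944, 1.23 and 0.687 CPM. AKR1C2 did not overlap (log2 change −0.52 ± 0.12 (SE), limma adjusted p = 0.00957). In AKR1C1 the lowest low-glucose and the highest high-glucose library were equal to 3 digits, and the log2 change of −0.43 passed (limma adjusted p = 0.0339). The 3 genes are near copies of each other, with 59.3% of the 31-base words of AKR1C2, 29.1% of AKR1C1 and 26.8% of AKR1C3 found in other genes, so how reads were split among them is uncertain. The AKR1C1 call was lost without low-glucose replicate 1, 2 or 4 or high-glucose replicate 2, 3 or 4, at log2 changes of −0.53 to −0.33 over single libraries left out (limma adjusted p up to 0.0851), and with quantile normalization at −0.26 (limma adjusted p = 0.166).

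Of the remaining members of this role, CBR3 and ABCC1 fell and OSGIN1 rose. CBR3, a carbonyl reductase, was at 20.3, 18.5, 17.9 and 18.6 CPM at low glucose and at 15.8, 13.9, 14.2 and 13.04 CPM at high glucose, without overlap (log2 change −0.39, limma adjusted p = 0.00223). Its relative CBR1 was at 45.3 to 49.2 CPM and 35.9 to 48.3 CPM, with a log2 change of −0.17 (limma adjusted p = 0.138). Leaving out high-glucose replicate 1 gave −0.24 (limma adjusted p = 0.017) and leaving out replicate 4 gave −0.10 (limma adjusted p = 0.25). ABCC1, which exports glutathione conjugates, was at 73.6, 76.9, 81.0 and 78.9 CPM and at 53.2, 66.2, 65.2 and 66.3 CPM. In this member alone, high-glucose replicate 1 lay below the other 3 of its group, and the log2 change was −0.31 (limma adjusted p = 0.0131; −0.23 without it). OSGIN1, an oxidative stress induced growth inhibitor, was at 3.67, 3.89, 3.99 and 5.39 CPM and at 9.18, 9.41, 7.01 and 5.87 CPM. High-glucose replicates 1 and 2 were the highest, the lowest high-glucose library was just above the highest low-glucose one, and the log2 change was 0.75 ± 0.17 (SE; limma adjusted p = 0.00881). Of 25 other carbonyl and quinone reductases and exporters, 2 rose, 16 fell and 7 did not pass, and the 3 of smallest adjusted p were ABCB6, a porphyrin transporter (log2 change −0.71), TRIM16 (−0.86) and ALDH7A1, an aldehyde dehydrogenase (−0.72), all of which fell.

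**Figure D4:**
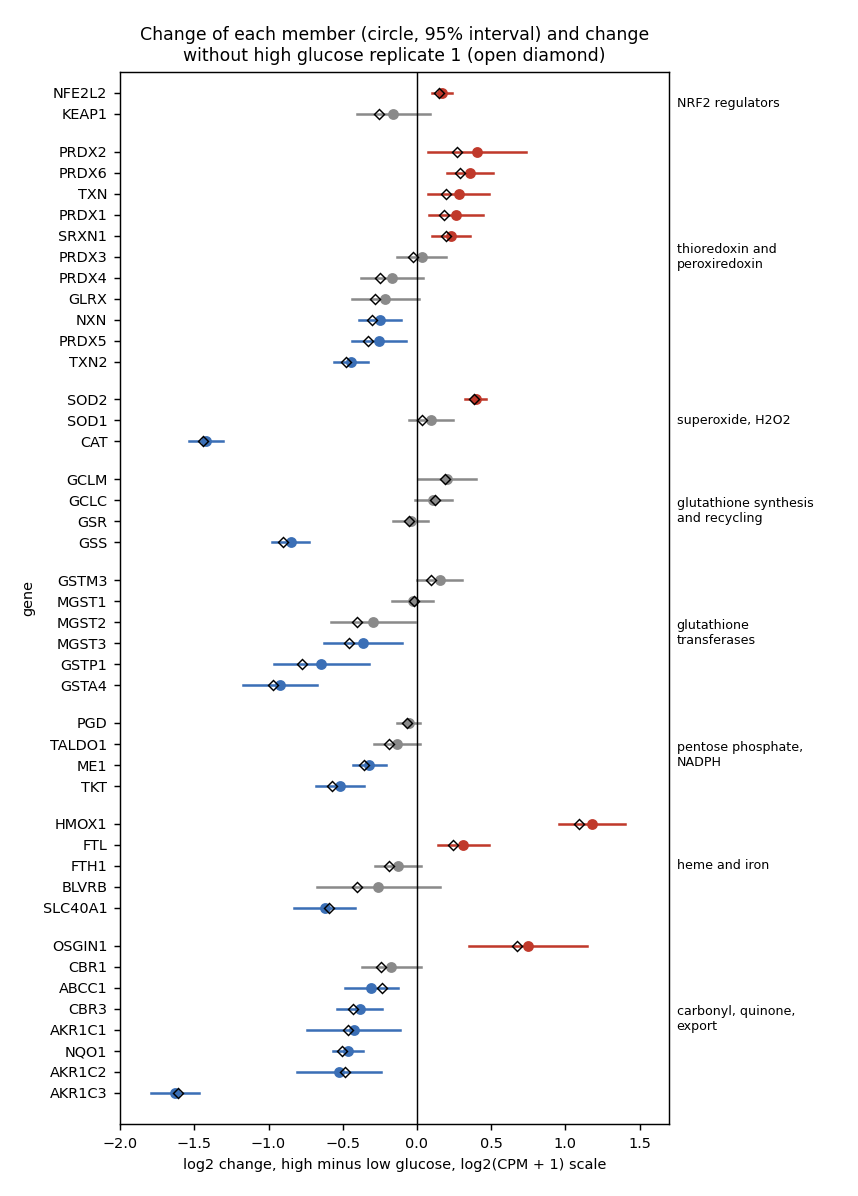
The x axis is the log2 change of each of the 43 members, high minus low glucose on the log2(CPM + 1) scale, with the 95% interval, in red for genes that rose, blue for genes that fell and grey for those not past the threshold. Open diamonds give the change without high-glucose replicate 1, which lies left of the circle for most members and right of it for, among others, ABCC1, SLC40A1, AKR1C2 and AKR1C3.

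Across all 5 lists of other pathway genes, 29 of 124 rose, 53 fell and 42 did not pass, with a median log2 change of −0.07, beside −0.17 for the members. Of these 124 genes, 104 were at a mean of at least 5 CPM. Of all genes at that level, 33.6% rose and 33.3% fell, and of all genes tested 22.0% and 24.8%. The counts of the lists were not tested against these shares. By level, the ferritin chains led the members per kilobase of transcript at low glucose (FTH1 903 and FTL 548 CPM per kilobase), followed by SOD1 (312), TXN (293), PRDX1 (242) and GSTP1 (235). At high glucose the same 6 genes were at FTH1 829, FTL 684, TXN 358, SOD1 335, PRDX1 292 and GSTP1 152 CPM per kilobase. These are levels over the length of 1 canonical transcript a gene, and differences between neighbours in these orders were not tested.

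High-glucose replicate 1 was the highest of its group in 31 of the 43 members, among them 22 of 25 with a transcript under 2000 bases and 9 of 18 longer ones. Its median difference from the mean of the other high-glucose libraries was 0.22 (log2) over all members and 0.29 over the short ones, beside 0.23 over all short genes of at least 5 CPM. Without it, 10 members rose and 25 fell. The 8 added falls were KEAP1, GLRX, PRDX4, MGST2, TALDO1, BLVRB, FTH1 and CBR1, and all 27 calls made with it remained. With all libraries and a length trend removed from each instead, none of these 8 passed. Their log2 changes were then −0.17 for MGST2 to −0.03 for FTH1 (limma adjusted p = 0.0657 for KEAP1 to 0.522 for TALDO1). Of the 8, KEAP1 alone passed when the replicate number was also a block (limma adjusted p = 0.0496). TXN was at 0.41 and PRDX5 at −0.14 with the length trend removed, beside 0.20 and −0.33 without high-glucose replicate 1. Of the short members not yet given without high-glucose replicate 1, SOD1 had a log2 change of 0.03 (limma adjusted p = 0.371). Those that rose were then at 0.18 for PRDX1, 0.27 for PRDX2, 0.24 for FTL and 0.68 for OSGIN1, and those that fell at −0.48 for TXN2, −0.33 for PRDX5, −0.90 for GSS, −0.97 for GSTA4, −0.46 for MGST3, −1.61 for AKR1C3 and −0.43 for CBR3. What set this library apart was not tested.

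**Figure D5:**
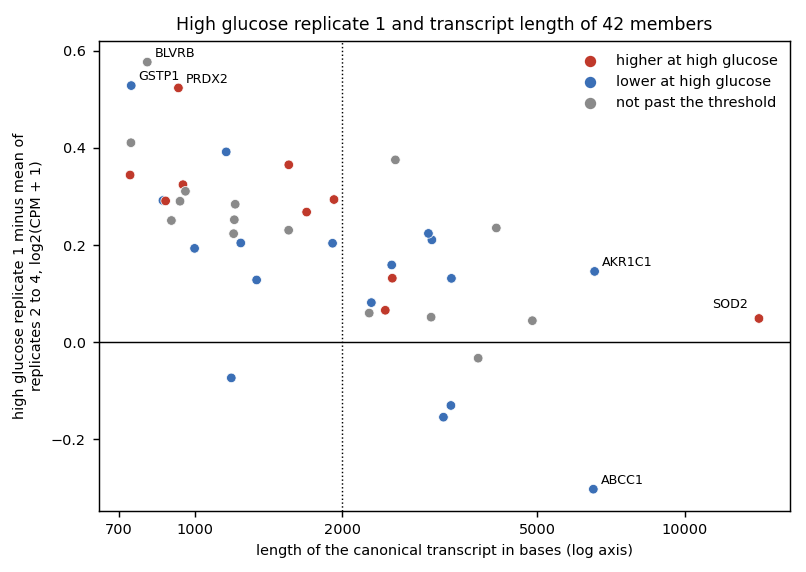
The x axis is the length in bases of the canonical transcript (log axis) and the y axis the difference of high-glucose replicate 1 from the mean of high-glucose replicates 2 to 4 in log2(CPM + 1), for 42 members (MGST1, near 0 CPM, is left out). Points left of the dotted line at 2000 bases lie above 0 with 1 exception, AKR1C3, and those to its right lie on both sides of it, with ABCC1 lowest.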

How the data were processed

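The labels name total RNA, standard Illumina libraries and a HiSeq instrument. The authors deposited 1 table of CPM values for 8 libraries, scaled with edgeR, and the labels name hg38, whereas the study's methods describe hg19 first for tumors. The counts behind the values were fractional (72.4% to 73.9% of values below 200 reads were whole within 0.01 read), so whole reads were not recovered and no count test was run. Of 21077 lines, 18 pseudoautosomal Y copies, identical to the X copies, were left out. Of the remaining 21059 genes, 856 were at 0 in every library. Depth was the sum of each library over its most frequent positive value, which was taken as the CPM of 1 read. As the libraries had no molecular identifiers, floors cover the error of counting alone.

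Groups and replicate numbers came from the sample titles and labels. Genes were compared with limma 3.58.1 in R 4.3.3 (lmFit and trended eBayes, 2-sided, without covariates) on log2(CPM + 1), a scale that understates changes of low genes, with Benjamini-Hochberg adjustment over 21059 genes. The fit was tested on simulated libraries of this size: it found 190 of 200 changed genes, each with its true sign, beside 15 of 20859 unchanged ones, and 1 of 21059 when none was changed. The changed genes all had a change of 1 on the log2 scale and a mean of at least 5 CPM. Genes were drawn independently, with no outlying library. The simulation therefore does not cover smaller changes, lower genes or a library like high-glucose replicate 1.

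The members, the lists of other pathway genes (125 names, 124 measured) and the tests were chosen with earlier results of these data known. Every member is accounted for. Values per library are given for the members of largest change past the threshold in each role, and always for NFE2L2, KEAP1, NQO1, HMOX1, GCLC, GCLM, PGD, TKT, TALDO1, SOD1, SOD2 and CAT. Of each other list the 3 genes of smallest adjusted p are named, and the enzymes of the pentose phosphate list, 1 of which is not reported here. Lengths and shared 31-base words came from canonical GENCODE transcripts (release 44 lifted to GRCh37), positions and promoters from RefSeq. PGLS was matched by its gene identifier. Alternatives were a pseudocount of 0.1, genes of at least 5 CPM only, median-of-ratios scaling, quantile normalization, removal of a length trend per library, the replicate number as a block and leaving out each library.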

Additional observations from a re-analysis of the deposited data

Results flagged for a closer look

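In groups of 4 libraries, the gap of the highest or lowest library to its nearest neighbour over the whole range of that group was compared with Dixon's 95% critical value. Over 86 groups this picked out 12, where chance gives about 4.3. High-glucose replicate 1 accounted for 5 of them. It was the highest of its group in TXN (314 CPM, gap over range 0.902), PRDX6 (192 CPM, 0.889), FTL (690.0 CPM, 0.854) and GSS (47.0 CPM, 0.831), and the lowest in ABCC1 (53.2 CPM, 0.913). These genes passed the test with and without it.

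Low-glucose replicate 1 was the highest in GLRX (25.9 CPM, 0.911) and SRXN1 (80.3 CPM, 0.865) and the lowest in TALDO1 (57.1 CPM, 0.854). Low-glucose replicate 3 was the highest in GCLC (68.0 CPM, 0.872) and GSS (80.9 CPM, 0.852). Without it the log2 change of GCLC was 0.15 and passed (limma adjusted p = 0.0488). MGST1 was above 0 in low-glucose replicate 3 (0.17 CPM) and high-glucose replicate 2 (0.0797 CPM) alone, so each of these libraries made up the whole range of its group (gap over range 1), at levels under 3 reads.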

How the results depend on the processing

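Across 15 alternatives, the number of members that rose ranged from 7 to 13 (10 as reported) and the number that fell from 14 to 25 (17 as reported), and the median log2 change of the members from −0.24 to −0.09 (−0.17 as reported). Among other pathway genes, 27 to 34 rose (29 as reported) and 45 to 53 fell (53 as reported). Leaving out 1 library at a time gave 7 to 10 members higher, 14 to 25 lower and a median of −0.24 to −0.10, with the highest count of falls, 25, without high-glucose replicate 1. All 27 called members kept their direction in every alternative run, and 17 of them kept the call, the exceptions being NFE2L2, TXN, NXN, SRXN1, PRDX1, PRDX2, PRDX5, MGST3, AKR1C1 and OSGIN1. Of the 16 members not called, 14 passed under at least 1 alternative. With a length trend removed from each library, SOD1 and PRDX3 passed as higher (log2 changes 0.21 and 0.10). Quantile normalization lost NFE2L2, TXN, SRXN1, PRDX1 and AKR1C1 and added PRDX4, GCLM, PGD, TALDO1 and CBR1. Among the members and the other pathway genes named, direction turned in 4, none of which passed as reported: PRDX3 (−0.0945 with quantile normalization, and −0.0255 to 0.0679 over single libraries left out, below 0 without high-glucose replicate 1), FTH1 (0.0539 with quantile normalization), MGST1 (−0.0566 to 0.0277 over single libraries left out, above 0 without low-glucose replicate 3) and SHPK (0.0437 with quantile normalization, and −0.105 to 0.0263 over single libraries left out, above 0 without low-glucose replicate 3 or high-glucose replicate 1). The causes were not tested.

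Samples of the same replicate number did not deviate together over genes (correlations 0.07, −0.03, 0.01 and −0.04), so no deviation shared by number was seen. Whether the libraries were paired in the experiment is not stated, and these correlations cannot decide it. With the replicate number as a block, 9 members rose and 16 fell, the calls of NXN, PRDX2, PRDX5 and OSGIN1 were lost and those of GLRX (fall) and GCLM (rise) were gained, and 8921 genes were called in place of 9849. Other pathway genes gave 30 higher and 51 lower under the block. Depth limits MGST1, which lay under 3 reads in all libraries.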
